A study of Mus musculus with 20 samples.

Results

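The 39 genes described here encode the lysosomal proton pump, the lysosomal hydrolases and membrane proteins, and their transcriptional regulators. They were chosen by symbol from the count table of a mouse spinal cord injury (SCI) series and were all found among its 16003 genes. The list held 16 genes of the vacuolar ATPase (6 of the membrane sector V0, 8 of the cytosolic sector V1 and 2 accessory proteins), 20 genes of other lysosomal proteins (11 hydrolases, 6 membrane proteins and 3 lumenal proteins that are not enzymes) and the transcription factors Tfeb, Tfec and Mitf. They were listed by their role, by a rule that reads no level or difference, with earlier results of these data known.

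Spinal cords came from female C57BL/6J mice of 8 to 10 weeks that received a contusion at thoracic level T9 or a laminectomy alone (sham). Mice were fed chow with 1200 ppm PLX5622, an inhibitor of the colony stimulating factor 1 receptor on which microglia depend, or vehicle chow, from 2 weeks before surgery until tissue was collected. About 1 cm of cord around the lesion was dissociated at 7 or 28 days post-injury (dpi), or from sham mice. Single cells were sequenced in 6 libraries, 1 for each of sham, 7 dpi and 28 dpi under each diet. The sham libraries are labeled 7 and 28 d, so the sham reference was not matched to either time after injury. Each library pooled 3 to 4 mice, so no difference between conditions had a replicate check and none was tested. PLX5622 acts on every cell with the receptor, so microglia that remained under the drug are a remnant, and monocyte-derived cells were exposed to it too.

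The lysosome degrades proteins, lipids, glycans and engulfed material with hydrolases that work best at low pH. The vacuolar ATPase keeps the lumen acid: V1 hydrolyses ATP and turns a rotor, and V0 carries protons through the membrane along a ring of proteolipids. In the injured cord, microglia and macrophages derived from blood monocytes (MDM) take up myelin and dead cells, and this cargo ends in lysosomes. Tfeb, Tfec and Mitf belong to a family of factors that bind the CLEAR element, an E-box with the core CACGTG, near many lysosomal genes.

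The promoters that hold this core are shown because many members share it and the choice of the genes did not use it. Of the 39 members, 31 matched a RefSeq promoter (GRCm38.p6), taken from 250 bases before to 50 bases after the start. CACGTG, which reads alike on both strands, lay in 9 of them (29.0%), against 8.09% of all gene symbols with a promoter in that table. It occurred in 4 of 11 pump promoters and 5 of 17 promoters of other lysosomal genes. The longer palindrome TCACGTGA, which contains CACGTG, lay in 4 of the 31 (12.9%) against 1.12% of all symbols. Lamp1, a main glycoprotein of the lysosomal membrane, had 4 copies between 61 and 10 bases before its start, and only 8 of 32851 promoters (0.0244%) had that many. The stretch with the 4 copies the first of 2 sites of the V0 subunit Atp6v0b, and a site of a V1 subunit and of 2 hydrolases read as follows, with CACGTG in capitals and each on the strand of its gene.
Lamp1, chr8:13159088-13159160, plus strand: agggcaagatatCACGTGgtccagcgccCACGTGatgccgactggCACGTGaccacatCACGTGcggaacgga
Atp6v0b, chr4:117887348-117887377, minus strand: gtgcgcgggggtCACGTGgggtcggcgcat
Atp6v1a, chr16:44139373-44139402, minus strand: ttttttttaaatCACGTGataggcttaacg
Glb1, chr9:114401018-114401047, plus strand: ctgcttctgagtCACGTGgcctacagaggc
Gaa, chr11:119267811-119267840, plus strand: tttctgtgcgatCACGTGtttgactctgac
These matches describe the letters in these windows, and no binding was measured. The 39 genes lay on 15 chromosomes, with 3 on X.

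The count table held 21016 cells. The libraries had 492 to 9846 cells and 2606149 to 35694246 unique molecular identifiers (UMIs), with medians of 2268.5 to 5127 UMIs per cell, and the PLX5622 libraries were the smallest. The members took 0.596% (sham PLX5622) to 1.80% (7 dpi vehicle) of a library's UMIs. Cells were grouped by the 14 clusters the authors deposited. Cluster 0, called microglia-like, had the highest level of 5 of 6 microglial markers, and cluster 1, called MDM-like, that of 4 of 6 MDM markers, with Atp6v0d2 among its 10 leading genes by fold. Clusters 3 and 12 stayed unnamed, because their leading genes by fold and the marker lists did not give 1 clear type. Cluster 3 had the highest level of 3 of 6 monocyte markers and was led by Retnla, Timd4 and the monocyte marker Cd209a, with Vsig4 also among its 10 leading genes. Cluster 12 had the highest level of 6 of 6 pericyte markers and was led by Dpt, Lum and Ccl11, of which Lum is a fibroblast marker. The T cell-like cluster was also led by natural killer genes (Gzma, Ncr1). The vehicle libraries held 674, 2154 and 3974 microglia-like cells (sham, 7 and 28 dpi) and 185, 3023 and 3313 MDM-like cells, and the PLX5622 libraries 29, 61 and 126 microglia-like and 9, 100 and 161 MDM-like cells. Over all pairs of libraries, 44 cell barcodes were shared.

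Levels are given as CPM, the UMIs of a gene per 1000000 UMIs of the cluster in that library, with exact Poisson 95% intervals. Differences are log2 ratios of CPM with exact conditional binomial 95% intervals. All intervals cover counting error only, neither the spread between mice nor that between libraries. Members were counted as higher or lower at 1.5-fold where the pair of libraries held at least 100 UMIs of the gene, beside the percentage of all genes that passed the same limit.

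Pump genes were detected in every cluster, whereas in the sham vehicle library the other lysosomal genes set the MDM-like and microglia-like clusters apart. In the sham vehicle library the summed level of the 20 lysosomal genes ran from 1364 CPM in T cell-like cells to 15241 (15039 to 15446) CPM in MDM-like cells, 11.2-fold higher, with 10847 CPM in microglia-like cells. The summed level of the 16 pump genes ran only from 1178 CPM in erythroid-like cells to 3120.2 (3029 to 3213) CPM in MDM-like cells, 2.65-fold. Pump UMIs made up 17.3% of pump and lysosomal UMIs in sham microglia-like cells, 17.0% in MDM-like cells and 23.8% in cluster 3, but 36.4% in astrocyte-like and 46.3% in endothelial-like cells. In sham neutrophil-like cells, which are also myeloid, this share was 55.6%. Over all libraries, 14 of the 20 lysosomal genes had their highest level in MDM-like or microglia-like cells (9 and 5), but only 9 of the 16 pump genes were highest in MDM-like cells and the other 7 were highest in neither. Atp6v0a1, the large V0 subunit of the proton path, and Atp6ap2, the prorenin receptor, were highest in astrocyte-like cells, and Atp6v0e and Atp6v1h in oligodendrocyte lineage-like cells. These levels pool all libraries, so they also depend on how many cells each stage gave. Pooled Atp6ap2 was at 182 CPM against 170 CPM in MDM-like cells, which had 262 CPM in the sham vehicle library. Atp6v0e was at 596 CPM against 575 CPM in MDM-like cells. The 7 include Atp6v0c, whose level is not read. Prosaposin (Psap), the precursor of activators of sphingolipid breakdown, progranulin (Grn) and the cholesterol carrier Npc2 together held 42.8% of all member UMIs.

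Atp6v0c, the main proteolipid of the V0 ring, had only 64 UMIs in 63 cells. The table listed its processed pseudogene Atp6v0c-ps2 with 570 UMIs. Reads of such near-identical copies may have been divided or dropped in counting, so the level of Atp6v0c is uncertain and is not read here. Tfec, with 158 UMIs, was also too sparse for ratios, and 37 members remained in most comparisons of MDM-like cells and 36 in those of microglia-like cells, in which Atp6v0d2 also missed the limit.

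In vehicle microglia-like cells, both sums were slightly higher after injury, while genes at large were lower. The pump sum was 2268 (2204 to 2333) CPM in the sham library, 2607 (2568 to 2645) CPM at 7 dpi and 2616 (2581 to 2652) CPM at 28 dpi, log2 ratios to sham of 0.20 (0.15 to 0.25) and 0.21 (0.16 to 0.25). The lysosomal sum was 10847 (10707 to 10989), 13256 (13169 to 13343) and 12198 (12121 to 12275) CPM, log2 ratios of 0.29 (0.27 to 0.31) and 0.17 (0.15 to 0.19). Both injured libraries were above the sham library, and they share that one library as reference. The median log2 ratio of all genes past the UMI limit was -0.54 at 7 dpi and -0.44 at 28 dpi, and with scaling by the trimmed mean of M-values (TMM), which sets the bulk of genes near 0, the sums were 0.83 and 0.92 at 7 dpi and 0.71 and 0.67 at 28 dpi. As UMI sums, the parts of the lysosome differed. The 3 lumenal proteins together were at 0.52 and 0.39 against sham, the V1 genes at 0.45 and 0.39 and the V0 genes at 0.26 and 0.32, but the 11 hydrolases at -0.025 (-0.064 to 0.014) and -0.10 (-0.14 to -0.063), values that were above 0 with TMM (0.61 and 0.40). Sums weigh abundant genes most. Per gene, the median hydrolase was at 0.36 at 7 dpi and 0.29 at 28 dpi, with 7 of 11 above 0 at each time. The median pump gene was at 0.074 and 0.14.

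**Figure D1:**
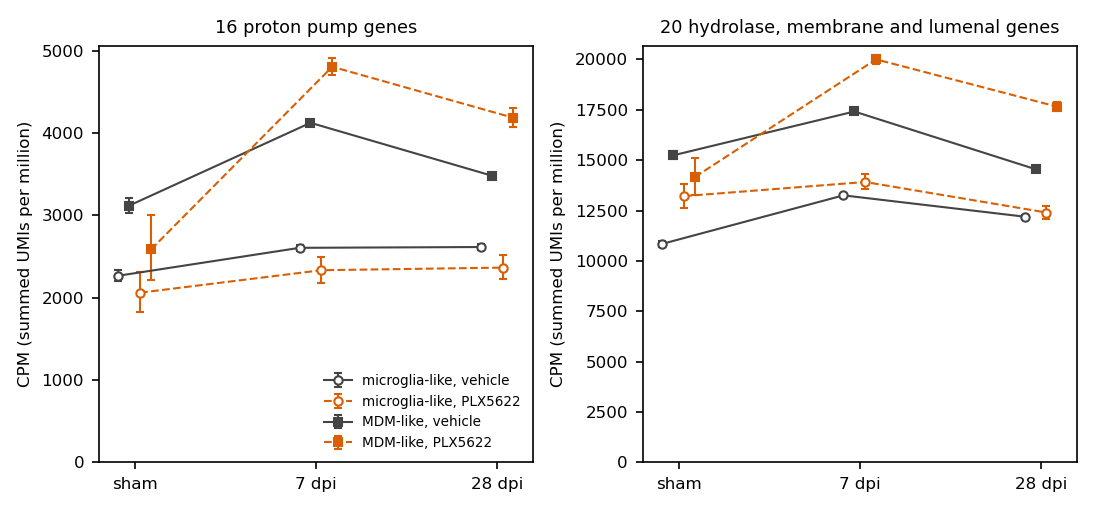
Summed level of the 16 pump genes and of the 20 other lysosomal genes (CPM, vertical axes) in each of the 6 libraries, with exact Poisson 95% intervals that cover counting error only. Open circles are microglia-like and filled squares MDM-like cells, gray is vehicle and dashed orange PLX5622, and lines only join the libraries of a series. MDM-like cells were highest at 7 dpi, with pump sums of 4125 CPM in the vehicle and 4806 CPM in the PLX5622 library.

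Of the 36 members past the UMI limit in microglia-like cells at 7 dpi, 9 were at least 1.5-fold higher than in the sham library, against 8.56% of all genes past that limit, and 4 were lower, against 47.3% of all genes. At 28 dpi 7 were higher (all genes 7.43%) and 3 lower (all genes 38.3%). The members' median log2 ratio was 0.081 at 7 dpi and 0.041 at 28 dpi, and 31 and 32 members lay above the median of all genes. The split depended on the scaling, since with TMM 25 members were higher at 7 dpi and 16 at 28 dpi, and 0 were lower at either time. Of all genes, 1577 of 6623 were then higher and 817 lower at 7 dpi, and 1421 of 7162 higher and 677 lower at 28 dpi. Each member past 1.5-fold in CPM kept its direction with TMM. The other members lay between the sialidase Neu1 (-0.55) and the beta-glucuronidase Gusb (0.57) at 7 dpi and between Neu1 (-0.53) and Grn (0.49) at 28 dpi.

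Among the pump genes, Atp6v1a, the catalytic subunit of V1 that hydrolyses ATP, measured 49.6, 90.8 and 102 CPM in the sham, 7 dpi and 28 dpi vehicle libraries. Both injured libraries were higher than sham, by log2 ratios of 0.87 (0.57 to 1.19) and 1.05 (0.75 to 1.35). Atp6v1f, a subunit of the rotor, was at 186, 347 and 296 CPM, and Atp6v0e, a small membrane subunit, at 224, 373 and 364 CPM. Both had the same order, with sham lowest and 7 dpi highest, and log2 ratios at 7 dpi of 0.90 (0.74 to 1.06) and 0.73 (0.59 to 0.88). Atp6ap2, which helps to assemble the pump, went the other way: it stood at 243, 119 and 157 CPM, or -1.03 (-1.19 to -0.87) on the log2 scale at 7 dpi and, at 28 dpi, -0.63 (-0.78 to -0.48). With Atp6v1h, a regulatory V1 subunit, at -0.79 and -0.18, these were the pump genes past 1.5-fold at 1 of the times or at both. The pump gene with most UMIs, Atp6v0b, a proteolipid of the ring, was at 465, 478 and 529 CPM, within 0.19 of sham.

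Hydrolases were split between those above and those below their sham level. Galns, a sulfatase that acts on keratan and chondroitin sulfate, was at 8.59, 28.6 and 25.2 CPM, log2 ratios of 1.73 (1.04 to 2.52) and 1.55 (0.86 to 2.34). Its sham level rested on 18 UMIs, which the wide intervals show. Glb1, the acid beta-galactosidase, was at 66.3, 133 and 112 CPM, 1.00 (0.74 to 1.27) and 0.76 (0.50 to 1.02), and Gaa, the acid alpha-glucosidase that degrades glycogen, was past the limit at 7 dpi only, with 0.59 and 0.49. Man2b1, the lysosomal alpha-mannosidase, was lower than sham in both injured libraries, at 904, 552 and 551 CPM or -0.71 (-0.79 to -0.63) and -0.71 (-0.79 to -0.64). Asah1, the acid ceramidase, was at 615, 353 and 362 CPM, -0.80 (-0.90 to -0.70) and -0.76 (-0.86 to -0.67). With TMM their ratios at 7 dpi were -0.077 and -0.17.

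The lumenal proteins Npc2 and Grn and the sialomucin Cd68 were higher after injury. Npc2, which hands cholesterol to Npc1 for export, was at 1051, 2026 and 2133 CPM, log2 ratios of 0.95 (0.88 to 1.01) and 1.02 (0.96 to 1.09). Grn was at 1382, 2667 and 1940.0 CPM, highest at 7 dpi, with 0.95 (0.89 to 1.01) and 0.49 (0.43 to 0.55). Cd68, a membrane protein of macrophage lysosomes, was at 603, 1049.9 and 968 CPM, 0.80 and 0.68. Psap differed little, with 2356, 2176 and 2223 CPM and ratios of -0.11 and -0.084, both above 0 with TMM. Npc1, the membrane partner of Npc2, was at 110.2, 85.5 and 86.8 CPM, at or below its sham level in CPM but above 0 with TMM (0.27 and 0.15), where Npc2 was at 1.58 and 1.52.

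The remaining members of microglia-like cells differed by less than 1.5-fold at both times. Among membrane proteins, Lamp1 was at 1321, 1352 and 1119.9 CPM, Lamp2 at 522, 443 and 460.4 CPM and Scarb2, a receptor that sorts cargo to the lysosome, at 119, 129 and 112 CPM. Among hydrolases, Hexa, the alpha subunit of beta-hexosaminidase, was at 707, 1007 and 947 CPM and Gusb at 163 CPM in sham and 242 CPM at 7 dpi, both lowest in the sham library. Tpp1, a tripeptidyl peptidase, was at 299.6, 385 and 370.2 CPM, Naglu at 109, 138 and 111 CPM, and Ppt1, which removes palmitate from proteins, at 347, 321 and 315 CPM. Neu1 was at 86.4, 59.1 and 59.8 CPM, highest in the sham library. Of the pump, Atp6v1g1 of the stalk was at 289, 379 and 367 CPM, Atp6v1c1 at 111, 134 and 141 CPM and the accessory protein Atp6ap1 at 271, 225 and 215 CPM.

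**Figure D2:**
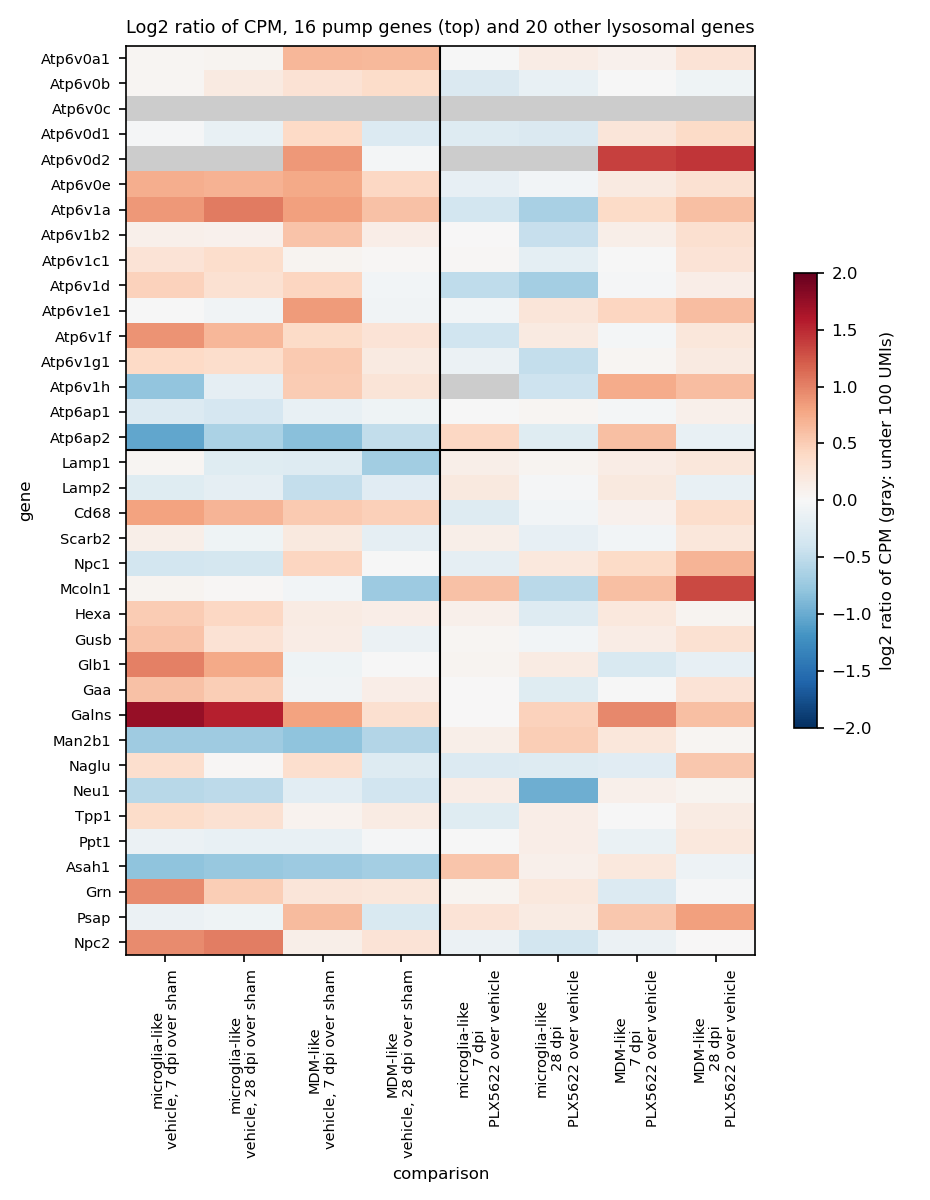
Heat map of the log2 ratio of CPM (color scale, red higher and blue lower) for the 16 pump genes and the 20 other lysosomal genes, by role from top to bottom, in 8 comparisons. The 4 columns on the left set 7 or 28 dpi against sham under vehicle, the 4 on the right PLX5622 against vehicle, and gray marks genes with fewer than 100 UMIs in the pair of libraries. Galns in microglia-like cells at 7 dpi (1.73) is the highest value drawn and Atp6ap2 in the same column (-1.03) the lowest.

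Marker levels in the microglia-like cells moved along with these genes. The 6 microglial markers together were below their sham level (9009 CPM in sham, 2949 CPM at 7 dpi and 3176 CPM at 28 dpi), and the 6 MDM markers were higher (64.9, 4300.3 and 4236 CPM, with 2, 0 and 1 of the 6 at 0). After injury the MDM sum was mostly Spp1, at 31.0, 3290 and 3247 CPM. The paper lists Spp1 among genes increased in microglia at both times after injury, so this sum does not by itself measure MDM RNA. The part of MDM RNA or MDM cells in the differences above was not tested. Atp6v0d2, a V0 isoform with 173 CPM in MDM-like cells at 7 dpi, was at 0, 4.44 and 5.30 CPM in microglia-like cells.

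In vehicle MDM-like cells, pump genes were higher at 7 dpi and nearer to their sham level at 28 dpi. The sum of the other lysosomal genes was above sham at 7 dpi and slightly below it at 28 dpi in CPM. The pump sum was 3120.2 (3029 to 3213) CPM in the 185 sham cells, 4125 (4097 to 4153) CPM at 7 dpi and 3484 (3453 to 3515) CPM at 28 dpi, or 0.40 (0.36 to 0.45) and 0.16 (0.11 to 0.20) on the log2 scale. The lysosomal sum was 15241 (15039 to 15446), 17418 (17360.2 to 17476) and 14554 (14490.4 to 14617) CPM, 0.19 (0.17 to 0.21) and -0.067 (-0.087 to -0.046). The last value changed sign with TMM (0.26), and the median gene stood at -0.25 at 28 dpi and -0.25 at 7 dpi. The pump share of pump and lysosomal UMIs was 17.0% in sham, 19.1% at 7 dpi and 19.3% at 28 dpi, and this share does not depend on the scaling. In microglia-like cells it was 17.3%, 16.4% and 17.7%.

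At 7 dpi, 7 of 37 members were at least 1.5-fold higher than in sham MDM-like cells (all genes 9.98%) and 4 lower (all genes 28.8%). Of the 7, 5 were pump genes. At 28 dpi only 1 was higher (all genes 5.00%) and 3 were lower (all genes 22.1%). With TMM the counts were 19 higher and 0 lower at 7 dpi, and 9 and 0 at 28 dpi. Of all genes, 1760 of 8303 were then higher and 1048 lower at 7 dpi, and 1068 of 7714 higher and 587 lower at 28 dpi.

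Atp6v0d2, the V0 isoform known from osteoclasts and macrophages (GRCm38 chr4:19876841-19922605), was at 94.5, 173 and 91.8 CPM, a log2 ratio of 0.87 (0.62 to 1.13) at 7 dpi and, at 28 dpi, -0.041 (-0.30 to 0.23). It was thus high at 7 dpi alone. Atp6v1e1, of the peripheral stalk, had the same course, with 160.1, 290.2 and 153 CPM and 0.86 (0.67 to 1.06) at 7 dpi. Atp6v1a was at 153, 270.0 and 229 CPM, above sham at both times, by 0.82 (0.62 to 1.02) and 0.58 (0.38 to 0.78). Atp6v0a1 was at 50.1, 79.5 and 78.4 CPM and Atp6v0e at 373, 633 and 495 CPM. Atp6v0a1 was the only member past 1.5-fold higher at 28 dpi, at 0.65 (0.30 to 1.01), with Atp6v1a just short of it at 0.58. Atp6ap2 was again lower than sham, at 262, 147 and 186 CPM, -0.83 (-0.99 to -0.67) at 7 dpi.

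Among the lumenal proteins, Psap stood at 3442, 5362 and 2800.2 CPM, or 0.64 (0.60 to 0.68) at 7 dpi and, at 28 dpi, -0.30 (-0.34 to -0.25), so the 7 dpi library was highest and the 28 dpi library lowest. As the most abundant lysosomal member it set much of the sum: without it the lysosomal log2 ratio at 7 dpi was 0.031, and at 28 dpi the sum was then near its sham level. Lamp1 was lower in both injured libraries, with 2094, 1754 and 1293 CPM, -0.26 (-0.31 to -0.20) and -0.70 (-0.75 to -0.64), and at 7 dpi its sign changed with TMM (0.10). Mcoln1, a calcium channel of the lysosomal membrane, was at 28.2, 27.1 and 17.1 CPM, low at 28 dpi only, at -0.72 (-1.21 to -0.20). Man2b1 (638, 363 and 426 CPM) and Asah1 (559, 337 and 347 CPM) were below sham as in microglia-like cells, at -0.81 and -0.73 at 7 dpi. Galns (41.6, 72.4 and 51.7 CPM) was the hydrolase past 1.5-fold higher, 0.80 (0.42 to 1.20) at 7 dpi. The 11 hydrolases together were at -0.12 (-0.16 to -0.081) and -0.14 (-0.18 to -0.10), above 0 with TMM (0.23 and 0.19). Per gene, the median hydrolase was at -0.077 and -0.025 in CPM.

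The other members of MDM-like cells differed less. At 7 dpi those within 1.5-fold lay between Lamp2 (-0.47) and Atp6v1b2 (0.57), the nucleotide-binding partner of Atp6v1a, and at 28 dpi between Man2b1 (-0.58) and Atp6v1a (0.58). Cd68 was at 1108, 1592 and 1536 CPM, Grn at 1866, 2203 and 2179 CPM and Npc2 at 2149, 2332 and 2611 CPM, so the last of these was above sham at both times by 0.12 and 0.28. Hexa was at 948, 1067 and 1038 CPM, Tpp1 at 445, 469 and 496 CPM and Glb1 at 146, 137 and 146 CPM. Glb1, which was higher in injured microglia-like cells, differed by -0.093 (-0.30 to 0.12) at 7 dpi here. The V0 ring subunit Atp6v0b was at 453, 554 and 582 CPM.

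The sham MDM-like cells were few and carried microglial RNA. The 6 microglial markers summed to 2550.4 CPM in them, 694 CPM at 7 dpi and 912 CPM at 28 dpi, and the 6 MDM markers to 9746, 35704 and 20769 CPM, with none at 0. Spp1 alone was at 4929, 20649 and 15027 CPM. What part these marker levels had in the ratios to sham was not tested. The 28 dpi library was therefore also set directly against the 7 dpi library. In microglia-like cells the pump sum was at 0.0054 (-0.024 to 0.034) and the lysosomal sum at -0.12 (-0.13 to -0.11), with 1 of 36 members past 1.5-fold higher (Atp6v1h, 0.61; all genes 5.43%) and 0 lower (all genes 0.969%). In MDM-like cells both sums were lower at 28 dpi, at -0.24 (-0.26 to -0.23) and -0.26 (-0.27 to -0.25). The lysosomal sum fell largely through Psap, which was at 5362 CPM at 7 dpi and 2800.2 CPM at 28 dpi. Per gene, 3 of 15 pump genes and 8 of 20 lysosomal genes were above 0 (all genes 4684 of 9140). The median pump gene was at -0.26, the median lysosomal gene at -0.046 and the median hydrolase at 0.044. 6 of 37 members were past 1.5-fold lower (all genes 7.40%) and 0 higher (all genes 8.86%). They were Psap (-0.94), Atp6v1e1 (-0.92), Atp6v0d2 (-0.91), Mcoln1 (-0.67), Atp6v0d1 (-0.66), which links the rotor to the membrane ring, and Naglu (-0.59), which degrades heparan sulfate, and the direction of all 6 held with TMM.

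Side by side in the same vehicle libraries, MDM-like cells had higher pump and lysosomal sums than microglia-like cells. Because the clusters were made from these genes among others, this is a description. The pump sum of MDM-like over microglia-like cells was at log2 0.46 in sham, 0.66 at 7 dpi and 0.41 at 28 dpi, and the lysosomal sum at 0.49, 0.39 and 0.25. In the sham library 14 of 33 members were at least 1.5-fold higher in MDM-like cells (all genes 9.69%) and 0 lower (all genes 30.4%). At 7 dpi 16 of 37 were higher (all genes 11.8%) and 1 lower (all genes 13.9%), and at 28 dpi 4 (all genes 5.61%) and 0 (all genes 13.1%). With TMM 22, 17 and 12 were higher in sham, at 7 dpi and at 28 dpi, and 0, 0 and 0 lower. Of all genes, 849 of 4500, 1284 of 8735 and 723 of 8473 were then higher, and 744, 979 and 635 lower. Atp6v0d2 had 134, 3435 and 1273 UMIs in the MDM-like cells of the sham, 7 and 28 dpi libraries and 0, 30 and 42 in the microglia-like cells, so it passed the UMI limit through the MDM-like cells. In sham it was 66.0-fold higher there, a value that takes the 0 UMIs in the microglia-like cells of that library as 3 and is not a lower bound.

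Under PLX5622, MDM-like cells had higher summed levels of both gene groups than vehicle MDM-like cells at the same time. At 7 dpi the pump sum was 4806 (4704 to 4910.3) CPM with PLX5622 and 4125 CPM with vehicle, a log2 ratio of 0.22 (0.19 to 0.25), and at 28 dpi 4186 (4075 to 4299) and 3484 CPM, 0.26 (0.22 to 0.31). The lysosomal sum was 20008 (19798 to 20218) and 17418 CPM at 7 dpi, 0.20 (0.18 to 0.22), and 17656 (17427 to 17887) and 14554 CPM at 28 dpi, 0.28 (0.26 to 0.30). All 4 ratios stayed above 0 with TMM, and the median gene was near 0 (at most 0.013). Per gene, 10 of 15 pump and 12 of 20 lysosomal genes were above 0 at 7 dpi (all genes 4182 of 8295), with medians of 0.12 and 0.12. At 28 dpi 13 and 16 were (all genes 3933 of 7635), with medians of 0.28 and 0.22. 6 of 37 members were at least 1.5-fold higher at 7 dpi (all genes 7.20%) and 8 at 28 dpi (all genes 8.66%), and 0 were lower at either time (all genes 7.47% and 9.08%). With TMM 3 and 4 were higher. Of all genes, 457 of 8295 and 533 of 7635 were then higher, and 773 and 849 lower. In the sham PLX5622 library only 9 MDM-like cells were found, and it is not compared.

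Atp6v0d2 differed most, with 447 (416 to 479) CPM under PLX5622 against 173 CPM under vehicle at 7 dpi and 249 (222 to 277) against 91.8 CPM at 28 dpi, log2 ratios of 1.37 (1.26 to 1.48) and 1.44 (1.26 to 1.62). The sham PLX5622 library listed it at 0 CPM in those 9 cells. At 7 dpi Atp6v0d2 held much of the difference between the pump sums of 4806 and 4125 CPM, and the pump ratio without it was not computed. Psap was at 7811 against 5362 CPM and at 4923 against 2800.2 CPM, 0.54 (0.52 to 0.57) and 0.81 (0.78 to 0.85). Without Psap the lysosomal log2 ratio was 0.017 at 7 dpi and 0.12 at 28 dpi, so the excess of the lysosomal sum at 7 dpi rested on this gene. Mcoln1 was at 41.2 against 27.1 CPM and 42.7 against 17.1 CPM, 0.60 (0.23 to 0.96) and 1.32 (0.87 to 1.75). Galns was at 0.96 and 0.60, Atp6v1h at 0.74 and 0.62, Npc1 at 0.39 and 0.67 and Atp6v1a at 0.38 and 0.60. Of these, Atp6v0d2, Mcoln1, Galns and Atp6v1h were past 1.5-fold at both times, but with TMM Mcoln1 at 7 dpi (0.54) and Galns (0.54) and Atp6v1h (0.56) at 28 dpi were not. Atp6v1e1 was past it at 28 dpi (0.62). Atp6ap2 and Tfeb were past it at 7 dpi only. Atp6ap2 was at 224 against 147 CPM at 7 dpi (0.60) and 167 against 186 CPM at 28 dpi (-0.15), and Tfeb at 36.6 against 24.4 CPM (0.59) and 17.1 against 23.0 CPM (-0.43), so both changed direction between the times. The more abundant Cd68 (0.090 and 0.35), Grn (-0.27 and -0.022), Npc2 (-0.12 and 0.0027) and Lamp1 (0.15 and 0.23) were within 1.5-fold of vehicle.

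**Figure D3:**
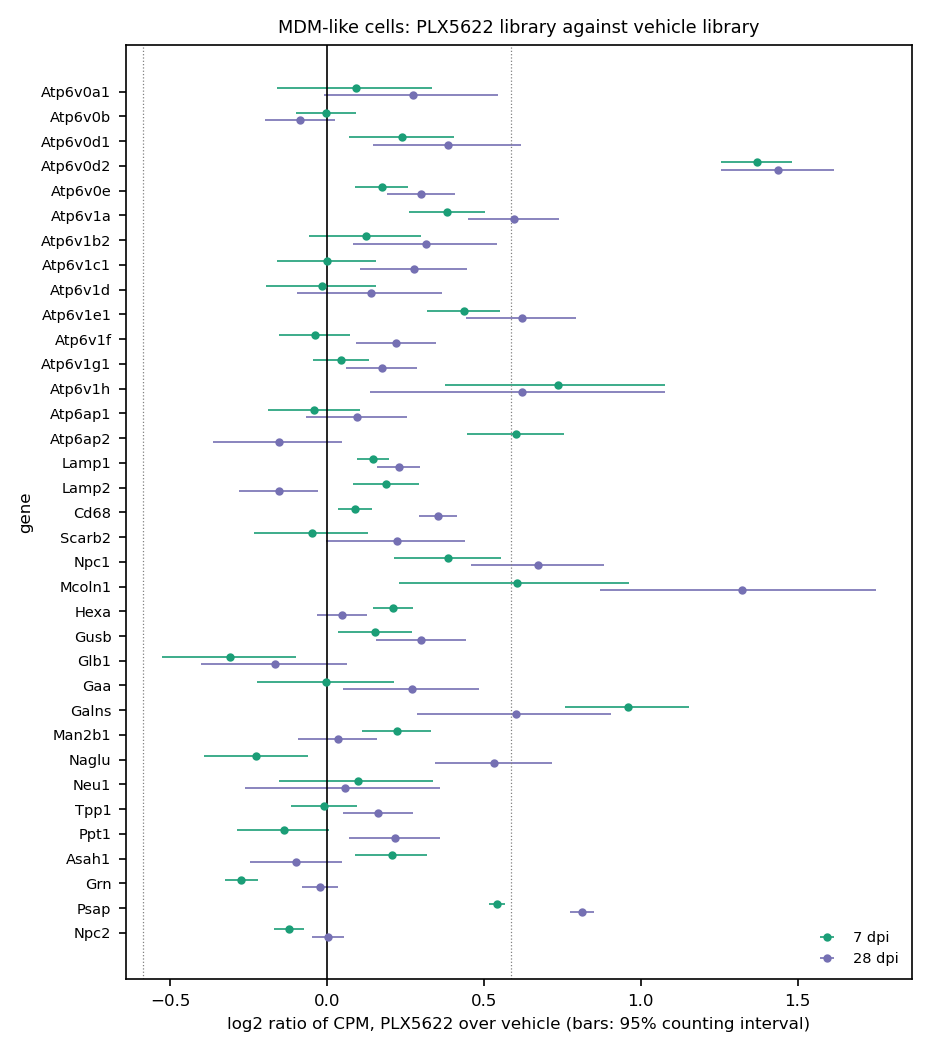
Log2 ratio of CPM, PLX5622 over vehicle, for the pump and other lysosomal genes past the UMI limit in MDM-like cells at 7 dpi (green) and at 28 dpi (purple), with exact conditional binomial 95% intervals that cover counting error only and dotted lines at 1.5-fold in each direction. Atp6v0d2 lies farthest above 0 at both times (1.37 and 1.44), and none of the members drawn lies below the lower dotted line.

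Depth and cell state moved together with the diet. MDM-like cells had a median of 15945 UMIs under PLX5622 and 5777 under vehicle at 7 dpi, and 6843 and 3875 at 28 dpi. The 6 MDM markers summed to 64185 against 35704 CPM at 7 dpi and 26854 against 20769 CPM at 28 dpi, none of them at 0. Spp1 alone was at 46905 against 20649 CPM at 7 dpi and at 11415 against 15027 CPM at 28 dpi. At 7 dpi Ms4a7 and Fn1 were lower under PLX5622 and the rest higher. At 28 dpi Spp1 and Fn1 were lower and the rest higher. The part of depth and cell state in the difference was not tested. For Atp6v0d2 the share of cells with at least 1 UMI of the gene was also counted after each cell was thinned to 1000 UMIs. The share was 2.29% of sham, 11.3% (10.2 to 12.5, Clopper-Pearson) of 7 dpi and 6.02% (5.22 to 6.89) of 28 dpi vehicle MDM-like cells, and 21.2% (13.6 to 30.6) and 12.0% (7.27 to 18.3) under PLX5622. These intervals cover the counting of cells within 1 library each, and the diets were not tested against each other. Thinning left out 15 and 55 vehicle and 1 and 11 PLX5622 cells. Unthinned, the shares at 7 dpi were 30.7% under vehicle and 51.0% under PLX5622. In endothelial-like cells, which are not known to use this isoform, 3 of 299 and 3 of 303 thinned vehicle cells had a UMI at 7 and 28 dpi. These shares were 1.00% (0.21 to 2.90) and 0.990% (0.20 to 2.87), at median depths of 2409 and 1342 UMIs. The endothelial-like cells also held 9977 and 12344.5 CPM of the 12 myeloid genes described below, so they are not a clean background. In microglia-like cells 0.554% and 0.522% had a UMI (median depths of 2902.5 and 1686 UMIs), no higher than in endothelial-like cells and so not read as expression. Of 548 thinned sham microglia-like cells 0 had one, and 3 counts of that total would be 0.547%, a limit on cells with a UMI at this depth and not on cells that express the gene.

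In microglia-like cells that remained under PLX5622 the pump sum was below that of vehicle, and the lysosomal sum was close to it. The pump sum was 2335 (2184 to 2493) CPM against 2607 CPM at 7 dpi and 2366 (2223 to 2516) against 2616 CPM at 28 dpi, log2 ratios of -0.16 (-0.26 to -0.062) and -0.14 (-0.24 to -0.054), below 0 at both times. The lysosomal sum differed by 0.070 (0.030 to 0.11) and 0.024 (-0.016 to 0.064), and both of these changed sign with TMM (-0.038 and -0.024). Without Psap, the lysosomal sums of microglia-like and of MDM-like cells were both close to vehicle at 7 dpi, so the clusters then differed little in it. At 7 dpi 1 of 35 members was at least 1.5-fold higher (Mcoln1, 0.59 from 10 UMIs under PLX5622; all genes 9.74%) and 1 lower (Mitf, -0.70; all genes 12.4%). At 28 dpi 0 of 36 were higher (all genes 8.04%) and 3 lower (all genes 15.1%), namely Neu1 at -0.98 (-1.90 to -0.19), Atp6v1d at -0.68 (-1.32 to -0.11) and Atp6v1a at -0.65 (-1.25 to -0.11), the latter both V1 subunits. With TMM 0 were higher at either time, and 2 and 5 lower. Of all genes, 361 of 5616 and 422 of 6359 were then higher, and 895 and 1057 lower. These libraries held 61 and 126 microglia-like cells, and single genes rested on few UMIs. The MDM markers in them summed to 2009 CPM at 7 dpi and 873 CPM at 28 dpi, lower than in vehicle microglia-like cells. Spp1 was at 1547 against 3290 CPM at 7 dpi and at 305 against 3247 CPM at 28 dpi. Gpnmb at 28 dpi was at 142 against 159 CPM. What the marker levels have to do with the pump genes was not tested. In the 29 sham PLX5622 cells the pump sum was 2062 (1832 to 2312) CPM and the lysosomal sum 13217 (12625 to 13829.7) CPM.

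In cluster 3, led by Retnla, Timd4 and Cd209a, the pump sum was 2339, 2909.5 and 2465 CPM and the lysosomal sum 7503, 9930.4 and 8139 CPM in the vehicle libraries (75, 602 and 284 cells). Pump genes took 23.8%, 22.7% and 23.2% of pump and lysosomal UMIs, more than in both other clusters in each of these libraries.

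Outside the myeloid clusters, over all cells, lysosomal genes were at large higher in the injured vehicle libraries than in sham, and so was the RNA of myeloid marker genes. Over the non-myeloid clusters with at least 20 cells, the median lysosomal sum was 2781 CPM in sham, 6534 CPM at 7 dpi and 4975 CPM at 28 dpi under vehicle. In T cell-like cells the lysosomal sum was 1364 CPM in sham, 7612 CPM at 7 dpi and 5725 CPM at 28 dpi under vehicle, and 1149, 1232 and 1224 CPM under PLX5622. The 12 myeloid genes (C1qa, Tyrobp, Lyz2 and others) summed in the same cells to 4795, 21754 and 19249 CPM under vehicle. In cells with fewer than 3 UMIs of these 12 genes, a choice extended to all clusters after the data were seen, the T cell-like lysosomal sum was 1735 CPM at 7 dpi and 1353 CPM at 28 dpi. B cell-like cells went from 9418 to 1814 CPM at 7 dpi and endothelial-like cells from 5457 to 2081 CPM, by the same choice. The median over clusters with at least 20 such cells was 2770 CPM in sham, 2295 CPM at 7 dpi and 2421 CPM at 28 dpi under vehicle. It covered 7, 6 and 8 clusters, and these were not the same ones, so the medians do not compare like with like. Erythroid-like and leptomeningeal-like cells and cluster 12 counted in sham but not at 7 dpi, and T cell-like and B cell-like cells at 7 dpi but not in sham. Of the clusters in both sets, endothelial-like, ependymal-like and astrocyte-like cells were above sham at 7 dpi and oligodendrocyte lineage-like cells below it. Oligodendrocyte lineage-like cells were at 2770, 2509 and 2312 CPM, and ependymal-like cells at 2442, 2990 and 2529 CPM. In sham, the endothelial-like sum by the same choice was 1668 CPM (1504 to 1844), below the 2081 CPM (1936 to 2233) at 7 dpi and 1961 CPM at 28 dpi, while fewer than 20 T cell-like or B cell-like sham cells passed it. A cell with few UMIs passes this choice more easily, so it also selects shallow cells.

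In astrocyte-like cells the lysosomal sum was 3789.8 CPM in sham, 10193 CPM at 7 dpi and 9184 CPM at 28 dpi under vehicle, and in cells with fewer than 3 myeloid UMIs 3477, 5488 and 5002 CPM. Under PLX5622, where little myeloid RNA was present (2304 CPM at 7 dpi and 963 CPM at 28 dpi over all astrocyte-like cells), it was 3809 CPM in sham, 6094 CPM at 7 dpi and 6202 CPM at 28 dpi, and 5209 and 5787 CPM in the cells with fewer than 3 myeloid UMIs. The injured libraries were above sham under both diets and in both sets of cells. At 28 dpi the vehicle log2 ratio to sham was 1.28 over all astrocyte-like cells and 0.52 in those cells, and that of the pump sum 0.25 and -0.037.

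**Figure D4:**
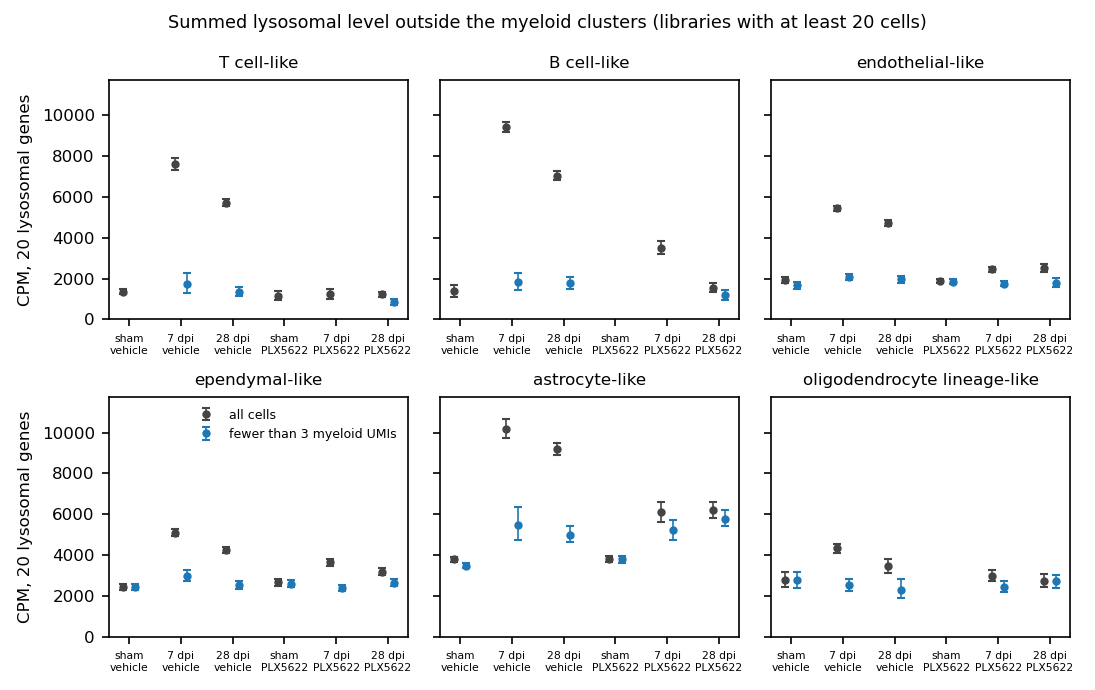
Summed level of the 20 lysosomal genes (CPM, vertical axis) in 6 clusters that are not myeloid, by library, over all cells (black) and over cells with fewer than 3 UMIs of 12 myeloid genes (blue), with exact Poisson 95% intervals. Points with fewer than 20 cells are not drawn. At 7 dpi under vehicle the T cell-like value is 7612 CPM over all cells and 1735 CPM in the cells with little myeloid RNA, and the astrocyte-like values are 10193 and 5488 CPM.

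Of 47 further lysosomal genes listed for comparison (other hydrolases, transporters, pump isoforms and the Ragulator complex that holds mTORC1 at the lysosome), 45 were in the table, and a log2 ratio to sham and its interval are given for those at the upper and lower end of each comparison. In microglia-like cells 6 of 36 were at least 1.5-fold higher and 8 lower at 7 dpi, and 4 and 8 of 37 at 28 dpi. With TMM these counts were 13 and 2, and 12 and 2, and of all genes 8.56% were higher and 47.3% lower in CPM at 7 dpi and 7.43% and 38.3% at 28 dpi. With TMM, 1577 of all 6623 genes were higher and 817 lower at 7 dpi, and 1421 of 7162 higher and 677 lower at 28 dpi. Gla, the alpha-galactosidase A, was highest at both times (at 7 dpi 2.17, 1.14 to 3.42, and at 28 dpi 2.44, 1.43 to 3.67, from 8 sham UMIs), followed at 7 dpi by Galc (1.40, 0.90 to 1.94), which degrades the myelin lipid galactosylceramide, and the tetraspanin Cd63 (1.35, 1.28 to 1.43), and at 28 dpi by Cd63 (1.29, 1.21 to 1.36). Lowest were Atp6v0a2, another isoform of the large V0 subunit (at 7 dpi -1.86, -2.12 to -1.61, and at 28 dpi -1.41, -1.63 to -1.18), and the phospholipase Pla2g15 (at 7 dpi -1.44, -1.58 to -1.30, and at 28 dpi -1.37, -1.50 to -1.23), with the arylsulfatase Arsa at 7 dpi (-1.11, -1.55 to -0.66) and the beta-mannosidase Manba at 28 dpi (-0.95, -1.51 to -0.38). In MDM-like cells 6 of 40 were higher and 6 lower at 7 dpi, and 1 and 9 of 39 at 28 dpi. TMM turned the balance, with 12 higher and 3 lower at 7 dpi and 7 and 3 at 28 dpi, where all genes in CPM had 9.98% higher and 28.8% lower, and 5.00% and 22.1%. With TMM, 1760 of all 8303 genes were higher and 1048 lower at 7 dpi, and 1068 of 7714 higher and 587 lower at 28 dpi. At 7 dpi the sulfamidase Sgsh (1.44, 0.59 to 2.46), Acp5, the tartrate-resistant acid phosphatase (1.43, 1.14 to 1.74), and Lamtor2 of Ragulator (0.88, 0.64 to 1.13) were highest and Manba (-2.07, -2.68 to -1.42), Atp6v0a2 (-1.43, -1.80 to -1.05) and Arsb (-1.10, -1.31 to -0.88) lowest. At 28 dpi Acp5 was the lowest (-2.32, -2.68 to -1.95), with Atp6v0a2 (-1.40, -1.78 to -1.01) and Manba (-0.92, -1.50 to -0.29), and Rragd (0.63, 0.041 to 1.27) and Lamtor2 (0.44, 0.20 to 0.69) were among the highest. Atp6v0a1 and Atp6v0a2 thus lay on opposite sides of 0 in MDM-like cells, with Atp6v0a1 at 0.67 at 7 dpi.

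The regulators were sparse. Tfeb was at 23.4, 16.6 and 23.6 CPM in vehicle microglia-like cells and 18.3, 24.4 and 23.0 CPM in MDM-like cells, and Mitf at 41.5, 42.5 and 40.7 CPM and 55.7, 35.6 and 40.7 CPM. Mitf was lower than sham in MDM-like cells at 7 dpi, at -0.65 (-0.98 to -0.29). Tfec reached 3.42 CPM at most in these cells and libraries. Transcript level says nothing of where these factors lie in the cell, which was not measured.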

How the data were processed

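Spinal cord cells were sequenced in 6 droplet libraries, in which the authors counted UMIs with Cell Ranger (3.0.2 per the file headers, on mm10 per the labels) and filtered and clustered cells with Seurat. The deposited table holds whole UMI counts, not normalized, beside the cluster number of each cell. UMIs mark 3 prime ends, so levels are per molecule and not per length. The notes also name STAR 2.4.0 and HTSeq 0.6.1, and the 14 bulk samples were not analysed here. Against the library matrices, the table differed only in genes seen in at most 2 cells of a library, which it lists at 0, and no member was affected.

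UMIs were summed per cluster and library. CPM, exact Poisson, conditional binomial and Clopper-Pearson 95% intervals were computed in Python 3.11.15 (scipy 1.17.1, pandas 2.3.3) and TMM factors with edgeR 4.0.16 in R 4.3.3. A fold against 0 was taken against 3 UMIs. Ratios were tested on simulated data. Clusters were named from lists of markers. Scrublet in scanpy 1.11.5 called 1258 of 21016 cells doublets, which were left in, with an alternative without them. The other alternatives were TMM, equal weight per cell, no UMI minimum, cells with at least 500 genes, the sums without their most abundant member, cells with fewer than 3 myeloid UMIs and unthinned shares, and, chosen after the data were seen, ratios relative to the median gene, the myeloid limit in all non-myeloid clusters and 28 against 7 dpi. Every member could be named, and of the further lysosomal genes the 3 highest and 3 lowest, except for 1 gene that is not reported here. The members and lists were chosen with earlier results of these data known. Promoters and their motif counts came from RefSeq (GRCm38.p6), with 8 members unmatched, and gene positions from GENCODE on GRCm38.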

Additional observations from a re-analysis of the deposited data

Results flagged for a closer look

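Atp6v1a, the catalytic pump subunit, was the member whose PLX5622 difference at 28 dpi was past 1.5-fold in opposite directions in the macrophage clusters. In microglia-like cells it was at 65.1 CPM under PLX5622 and 102 CPM under vehicle, a log2 ratio of -0.65 (-1.25 to -0.11), and in MDM-like cells at 346 and 229 CPM, a log2 ratio of 0.60 (0.45 to 0.74). With TMM the ratios were -0.70 and 0.53, so the MDM-like value was then within 1.5-fold. The microglia-like value rested on 28 UMIs of 126 cells. With 1 library per condition the difference between the clusters was not tested.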

How the results depend on the processing

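No paired analysis was possible because each condition was 1 library of pooled mice and no comparison came from a test, and for the same reason no replicate could be left out. Leaving out cells with fewer than 500 genes, or cells called doublets, moved none of the 16 summed ratios beyond its counting interval. With TMM, which by construction sets the bulk of genes near 0, the pump and lysosomal ratios to sham were 0.83 and 0.92 at 7 dpi and 0.71 and 0.67 at 28 dpi in microglia-like cells, and 0.76 and 0.55 at 7 dpi and 0.48 and 0.26 at 28 dpi in MDM-like cells, where the last reversed. PLX5622 over vehicle was -0.27 and -0.038 at 7 dpi in microglia-like cells, the second of them reversed, -0.024 for the lysosomal sum at 28 dpi, whose interval held 0 before, and 0.15 and 0.13 at 7 dpi and 0.20 and 0.21 at 28 dpi in MDM-like cells. The members past 1.5-fold with TMM were 25 higher and 0 lower (microglia-like, 7 dpi), 16 and 0 (28 dpi), 19 and 0 (MDM-like, 7 dpi) and 9 and 0 (28 dpi), and for PLX5622 over vehicle 0 and 2, 0 and 5, 3 and 0, and 4 and 0 in the same order. The counts over all genes with TMM stand beside each of these comparisons above. Taken relative to the median gene, an alternative chosen after the data were seen, the MDM-like lysosomal ratio at 28 dpi reversed to 0.18, and the microglia-like ratios to sham were 0.75 and 0.83 at 7 dpi and 0.65 and 0.61 at 28 dpi, the microglia-like lysosomal ratio of PLX5622 over vehicle at 28 dpi was 0.068, and those of MDM-like cells 0.66, 0.45 and, for the pump at 28 dpi, 0.41.

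Weighting each cell alike gave lysosomal ratios of 0.19 and 0.0029 in microglia-like cells at 7 and 28 dpi and -0.035 in MDM-like cells at 28 dpi, and for PLX5622 over vehicle 0.16 and 0.093 in microglia-like cells, 0.15 (pump) and 0.30 (lysosomal) at 7 dpi and 0.15 (pump) at 28 dpi in MDM-like cells, and the cause was not tested. Without the most abundant member (Psap, or Atp6v0b for the pump) the lysosomal ratios to sham were 0.38 and 0.23 in microglia-like and 0.031 and -0.0055 in MDM-like cells, and PLX5622 over vehicle 0.025 at 7 dpi in microglia-like cells, 0.017 at 7 dpi and 0.12 at 28 dpi in MDM-like cells and 0.33 for the pump at 28 dpi. With no minimum of UMIs, 2 and 1 members were higher under PLX5622 in microglia-like cells at 7 and 28 dpi, since sparser genes entered. In astrocyte-like cells with fewer than 3 myeloid UMIs the pump ratio at 28 dpi reversed to -0.037 and the lysosomal ratio was 0.52. Without thinning, the shares of cells with an Atp6v0d2 UMI were 1.21% and 0.981% (microglia-like, 7 and 28 dpi vehicle), 7.57%, 30.7% and 18.7% (MDM-like, vehicle) and 51.0% and 31.7% (MDM-like, PLX5622), higher as each cell then kept more UMIs. Few cells stood behind the PLX5622 values (29 to 126 microglia-like and 9 to 161 MDM-like cells) and the sham MDM-like values (185 cells).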
